A study of Mus musculus with 3 samples.

Results

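The collagen genes of mouse back skin epithelium were examined in 3 RNA sequencing libraries. The members are all genes whose symbol is written Col, a number, the letter a and a number, without Col17a1, which gave 43 of the 44548 genes in the table. Each library was made from polyadenylated RNA of live single cells, freed with trypsin, separated from the dermis and sorted by FACS as integrin alpha6-positive and Sca1-negative (Alpha6+/Sca1-). The protocol names an antibody to integrin alpha6 and none to Sca1. The donors were wild-type (WT) mice aged 56 days (P56), when hair follicles rest for the second time (2nd telogen), and no treatment with an agent is named. All 3 libraries belong to 1 group and are numbered as replicates 1 to 3. The labels speak of biological duplicates and tie no library to an animal, so p-values measure only the spread between these samples, which may be technical.

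Collagens are secreted or membrane proteins whose chains wind around each other in trimers. The winding needs glycine at regular spacing, and long stretches of glycine followed by any pair of residues are the mark of the family. Fibrillar collagens form the rope-like fibres of the dermis and are known mainly as products of fibroblasts. Type IV chains build the sheet-like network of basement membranes, and type VII forms anchoring fibrils that tie the epidermal basement membrane to the dermis. Type VI makes beaded microfilaments, type VIII a hexagonal lattice, and type XVIII carries heparan sulfate chains and lies in basement membranes.

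The glycine repeat differs between the classes. It was counted in the longest coding sequence of each of the 43 genes (GENCODE M21) as runs of 9-base units that begin with a glycine codon. The longest unbroken run held 216 to 344 units in the 11 fibrillar genes and 39 to 66 units in the 6 type IV genes. Type IV sequences were instead broken into 23 to 27 runs of at least 3 units, against 2 to 5 runs in the fibrillar genes. Over all members 9.07% to 31.2% of codons were glycine codons. The start of the longest run is shown for 5 members as 9 units with the glycine codons in capitals. Col6a1, Col8a2 and Col7a1 were chosen as the highest members of their classes by TPM, and Col4a1 and Col1a1 as the textbook chains of type IV and fibrillar collagen.
Col6a1: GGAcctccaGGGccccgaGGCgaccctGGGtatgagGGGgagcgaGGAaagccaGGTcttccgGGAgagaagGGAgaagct
Col8a2: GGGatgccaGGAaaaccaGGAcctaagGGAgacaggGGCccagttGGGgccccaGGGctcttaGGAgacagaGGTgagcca
Col7a1: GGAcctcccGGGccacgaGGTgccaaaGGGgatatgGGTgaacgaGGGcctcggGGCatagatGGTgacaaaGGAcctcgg
Col4a1: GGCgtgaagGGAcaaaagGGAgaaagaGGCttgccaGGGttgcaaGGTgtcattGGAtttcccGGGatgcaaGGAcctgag
Col1a1: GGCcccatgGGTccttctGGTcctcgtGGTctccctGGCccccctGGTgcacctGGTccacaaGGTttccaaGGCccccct
The run that opens here goes on for 87 units in Col6a1, 60 in Col8a2, 75 in Col7a1, 40 in Col4a1 and 338 in Col1a1.

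The libraries held 29283936 to 39198620 counts. The collagen share of all counts was lowest in replicate 1, at 0.337% (Wilson 95% limits 0.335 and 0.340). It was 0.432% in replicate 2 (limits 0.430 and 0.434) and 0.462% in replicate 3 (limits 0.460 and 0.464). Their summed level was 1306, 1714 and 1810.3 TPM (a level per transcript length, scaled to the same total in each library), a mean of 1610.3 ± 267 (SD, n = 3). Col17a1, left out by the rule, alone had 3979 ± 363 TPM. The list of 5 interfollicular and suprabasal markers, led by Krt10, was in the same order over the libraries as the collagen total, with a summed 1642, 3161 and 5045 TPM in replicates 1, 2 and 3. Its part in the collagen levels was not tested.

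The name of the gene set, collagens made by epithelial cells, was checked against markers of other cell types. Of 8 hair follicle stem cell genes, 8 had a TPM of at least 1 on average, with a summed 20837 to 27115 TPM. Among 10 fibroblast markers other than collagens, Lum, Dpt, Twist2 and Mfap5 had 0 counts in all 3 libraries and Dcn had 0.274 ± 0.0675 TPM. The detected ones were Fbln1, a matrix glycoprotein of basement membranes and elastic fibres, with 172 ± 41.6 TPM, and Thy1, a surface glycoprotein also found on other cell types, with 8.59 ± 2.85 TPM. Without Fbln1 the list summed to 6.14, 10.0 and 11.9 TPM in replicates 1, 2 and 3, most of it Thy1. The endothelial list had 3 of 6 genes at 0 counts (Cdh5, Cldn5 and Emcn) and a summed 0.257 to 0.486 TPM. Rgs5 and Des of the 7 pericyte and smooth muscle genes were at 0 counts, and without Cspg4 (129.6 ± 36.0 TPM) the list summed to 0.845 to 2.18 TPM. The other lists summed to 36.6 to 63.3 TPM (6 dermal papilla genes, led by Crabp1), 9.56 to 11.7 TPM (7 Schwann cell and nerve genes, led by Mbp, with Cdh19 at 0 counts), 13.3 to 15.7 TPM (6 melanocyte genes, led by Dct) and 8.93 to 15.3 TPM (6 immune genes, led by Cd74, with Lyz2 at 0 counts). In sorted bulk cells, fewer cells of a type and less RNA per cell cannot be told apart.

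A mean TPM of at least 1 was reached by 23 of the 43 members (53.5%), against 54.9% of 21410 protein-coding genes. The detected share of the collagen genes was thus near that of protein-coding genes at large. Of the 20 undetected members, 16 had counts in at least 1 library and 4 had none. All 6 type IV genes and Col7a1 were detected, and so were 4 of 11 fibrillar, 6 of 9 fibril-associated, 2 of 6 type VI family, 2 of 3 short-chain network, 1 of 2 multiplexin and 1 of 3 transmembrane genes. Type VI microfibrillar genes held 28.9% ± 3.14 of the summed collagen TPM, short-chain network genes 19.9% ± 1.30 and multiplexins 19.4% ± 3.97 (SD, n = 3). Col7a1, the only anchoring fibril gene, held 10.99% ± 6.25 and the basement membrane genes 9.44% ± 1.14. The fibril-associated and fibrillar genes held 5.63% ± 0.587 and 5.59% ± 0.508, and the transmembrane genes 0.0958% ± 0.0154. By counts, which are not divided by length, the order differed: the anchoring share was 16.7% ± 8.66, above the short-chain network share of 13.5% ± 1.44, and the fibril-associated share was 8.84% ± 0.231.

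**Figure D1:**
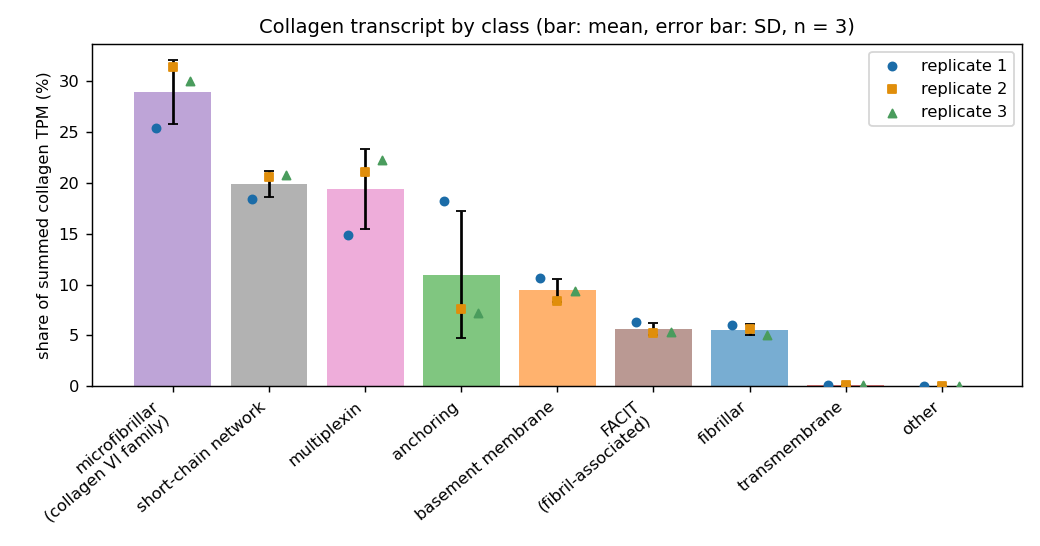
Share of the summed collagen TPM (in percent, vertical axis) held by each collagen class, with 1 point per library, bars for the mean and error bars for the SD over 3 libraries. Type VI leads with 28.9%, and the anchoring class (Col7a1 alone) has the widest spread, with replicate 1 at 18.2% and the others at 7.59% and 7.17%.

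Col6a1, Col18a1, Col8a2 and Col7a1 had more than 100 TPM on average and together 74.2% ± 1.45 of the collagen TPM (SD, n = 3). Col6a1 (ENSMUSG00000001119, chromosome 10, 76708792 to 76726168, minus strand) encodes a chain of the type VI trimer. It had 279, 447 and 449.7 TPM in replicates 1, 2 and 3, a mean of 392 ± 98.2, and stood at percentile 97.6 of the detected protein-coding genes. Replicate 1 was the low library, and the other two were close together.

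Col6a2, which encodes a partner chain in the same trimer and lies on the same strand of chromosome 10 (76595762 to 76623630), had 52.4, 89.7 and 93.6 TPM, a mean of 78.5 ± 22.7. Within each library Col6a1 was above Col6a2 by 2.39, 2.31 and 2.25 on the log2(TPM + 1) scale, a mean of 2.32 ± 0.07 or a TPM ratio of 5.04 ± 0.259. The gene lengths behind TPM are 4380 bases for Col6a1 and 8326 for Col6a2, while their longest coding sequences hold 1025 and 1034 codons. On the log2(CPM + 1) scale, with no division by length, the mean difference was 1.40. The direction held in 3 of 3 libraries (exact sign-flip permutation over libraries, two-sided, p = 0.25, adjusted 0.375); no smaller p is possible with 3 libraries. Col6a3, the large chain that completes the classical trimer, had 1, 13 and 9 counts, a mean of 0.0453 ± 0.0359 TPM. The genes for chains that can take its place were also low, with Col6a6 at 0.387 ± 0.289 TPM, Col6a5 at 0, 12 and 0 counts, and Col6a4 without a single count, for which the upper limit is 0.0326 TPM. Col6a1 and Col6a2 were thus abundant while none of the 4 other type VI genes reached 1 TPM.

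Col8a2 (chromosome 4, 126286793 to 126314330, plus strand) encodes a short chain of the type VIII lattice, known from the basement membrane of the cornea. It had 236, 349 and 372 TPM, a mean of 319 ± 72.7, with replicate 1 lowest. Its partner Col8a1 had 4.27, 3.97 and 3.12 TPM, a mean of 3.79 ± 0.595, far below Col8a2 in every library. Col10a1, the related gene of cartilage that is about to ossify, had 2, 0 and 0 counts.

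Col18a1 (chromosome 10, 77052178 to 77166548, minus strand), whose C-terminal fragment is endostatin, had 194, 362 and 403 TPM, a mean of 319.6 ± 110.5. Replicate 1 was again lowest, by 0.97 on the log2 scale against the mean of the other libraries. The gene shares 8825 bases with Slc19a1 on the opposite strand, which had 860 to 1438 counts against 14704 to 43634 for Col18a1, and the strand setting of the counting is not known. Col15a1, the other multiplexin, had 0, 0 and 7 counts.

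Col7a1 (ENSMUSG00000025650, chromosome 9, 108953586 to 108984875, plus strand) had 238, 130.1 and 129.7 TPM, a mean of 166 ± 62.3. Here replicate 1 was the high library, opposite to Col6a1, Col18a1 and Col8a2. The 250 bases before its start (GRCm38, chr9:108953336-108953585, plus strand, RefSeq) are shown because Col7a1 is the sole member of its class. Capitals mark 1 CCAAT motif, read here on the other strand as ATTGG, and 1 GGGCGG motif.
Col7a1 upstream: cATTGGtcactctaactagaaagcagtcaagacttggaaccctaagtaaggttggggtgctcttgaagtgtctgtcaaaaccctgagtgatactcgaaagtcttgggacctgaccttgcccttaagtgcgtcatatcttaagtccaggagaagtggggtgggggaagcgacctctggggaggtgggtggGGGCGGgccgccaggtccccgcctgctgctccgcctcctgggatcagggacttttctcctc
RefSeq promoter windows (250 bases before to 50 after a start) were found for 34 of the 43 members, with both strands searched. GGGCGG was in the windows of 14 of 17 detected members, near the 70.2% of 9019 detected protein-coding genes that hold it. CCAAT was in 7 of the 17, against 42.8% of the same genes. TATAAA was in 0 of the 17 (8.38% of those genes) and TGANTCA, the AP-1 motif, in 1 of the 17 (6.12%), namely Col6a1. Over all 32851 windows of that length the shares were 35.7% for GGGCGG, 37.4% for CCAAT, 13.6% for TATAAA and 7.81% for TGANTCA.

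**Figure D2:**
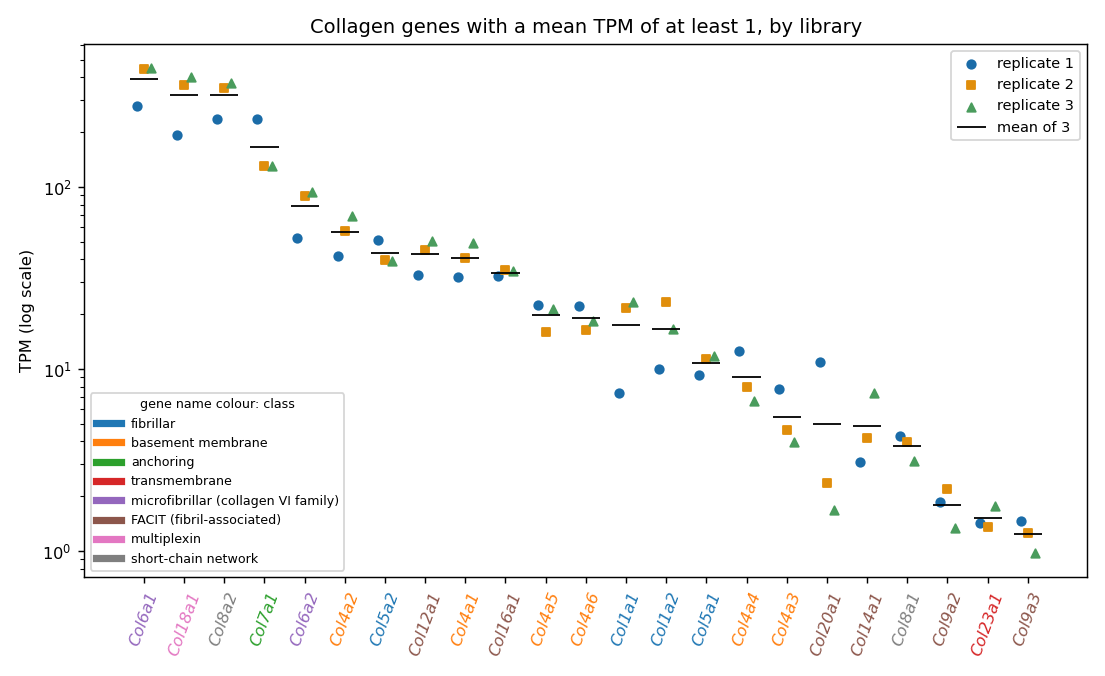
TPM on a log scale (vertical axis) of the 23 collagen genes with a mean of at least 1, in order of their mean, with 1 point per library, a line at the mean and gene names coloured by class. The 4 leading genes lie above 100 TPM on average, and replicate 1 is lowest for most of the upper genes but highest for 9 genes, among them Col7a1, Col5a2, Col4a3, Col4a4 and Col20a1.

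The basement membrane genes were all detected, and the 3 pairs of partner chains lay at separate levels, Col4a1 and Col4a2 highest and Col4a3 and Col4a4 lowest by their means. Col4a1 and Col4a2, whose products form the common type IV trimer, lie head to head on chromosome 8 (Col4a1 at 11198423 to 11312826 on the minus strand, Col4a2 at 11312805 to 11449287 on the plus strand), with starts 21 bases apart and 22 shared bases. Col4a2 had 42.0, 57.7 and 69.4 TPM and Col4a1 had 32.1, 40.9 and 49.2 TPM. Both were lowest in replicate 1 and highest in replicate 3, and Col4a1 lay below its partner in every library, by a mean log2(TPM + 1) difference of -0.45 ± 0.06 (two-sided exact sign-flip p = 0.25, adjusted 0.375). The TPM ratio of Col4a1 to Col4a2 was 0.728 ± 0.0313, although the classical trimer is known to hold more Col4a1 than Col4a2 chains.

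Col4a5 and Col4a6, whose products assemble in the basement membranes of skin, lie head to head on the X chromosome with starts 1309 bases apart. Col4a5 had 22.4, 15.9 and 21.2 TPM, a mean of 19.8 ± 3.46, and Col4a6 had 22.1, 16.4 and 18.4 TPM, a mean of 19.0 ± 2.89. Their difference of 0.06 ± 0.12 on the log2(TPM + 1) scale was smaller than its spread (two-sided exact sign-flip p = 0.75, adjusted 0.9), and its sign turned without replicate 3 (-0.013) and without division by length (-0.18).

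Col4a3 and Col4a4, known for the basement membrane of the kidney glomerulus, were the lowest type IV genes. Col4a4 had 12.5, 7.96 and 6.68 TPM and Col4a3 had 7.78, 4.602 and 3.96 TPM. Both were highest in replicate 1, opposite to Col4a1 and Col4a2, and Col4a3 minus Col4a4 was -0.64 ± 0.03 on the log2(TPM + 1) scale, with Col4a3 lower in 3 of 3 libraries (two-sided exact sign-flip p = 0.25, adjusted 0.375). Their starts lie 72 bases apart on chromosome 1, with Col4a4 on the minus and Col4a3 on the plus strand. The 71 bases between the starts (GRCm38, chr1:82586850-82586920, minus strand, RefSeq) are printed because the pair had the smallest SD of the 6 pairs. That rank turned without replicate 1, with an SD of 0.0014 for Col4a1 and Col4a2 and 0.033 for Col4a3 and Col4a4. The stretch between the starts holds neither CCAAT nor GGGCGG on either strand.
Col4a4 to Col4a3 spacer: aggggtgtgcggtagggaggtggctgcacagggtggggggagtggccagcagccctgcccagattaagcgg
The levels of Col4a3 and Col4a4 differed by a steady factor, a TPM ratio of 0.597 ± 0.0223. Each was highest in replicate 1, as were 60% of detected protein-coding genes.

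**Figure D3:**
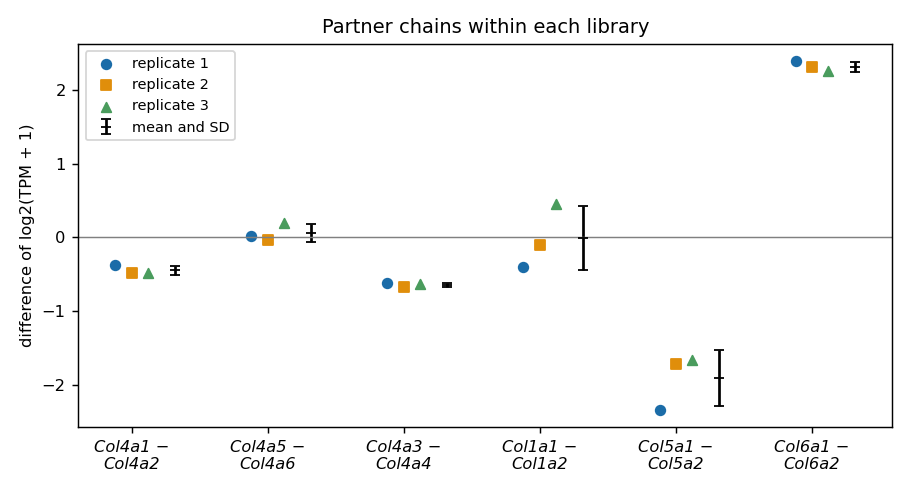
Difference of log2(TPM + 1) between partner chains within each library (vertical axis), with 1 point per library and the mean and SD over 3 libraries beside them. Col6a1 lies 2.32 above Col6a2, and the Col4a3 and Col4a4 pair has the smallest SD (0.03) while Col1a1 and Col1a2 have the largest (0.43).

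Of the fibrillar genes, 4 of 11 reached 1 TPM. Col5a2, a chain of the type V collagen that starts and limits fibrils, was highest with 51.2, 39.8 and 39.2 TPM, a mean of 43.4 ± 6.76. Its partner Col5a1 had 9.28, 11.4 and 11.7 TPM, a mean of 10.8 ± 1.32. Col5a1 minus Col5a2 was -2.34, -1.72 and -1.66 on the log2(TPM + 1) scale, a mean of -1.91 ± 0.38 (two-sided exact sign-flip p = 0.25, adjusted 0.375). The ratio of Col5a1 to Col5a2 was 0.255 ± 0.0646, and Col5a3, the other type V chain, was at 0.162 ± 0.0181 TPM.

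Col1a1 (chromosome 11, 94936224 to 94953042, plus strand) had 7.36, 21.6 and 23.3 TPM from 521, 1938 and 2354 counts, a mean of 17.4 ± 8.73. Replicate 1 was under 50% of both others, as it was for 1 of 23 detected members and 111 of 11760 detected protein-coding genes. Col1a2 had 10.0, 23.2 and 16.7 TPM, a mean of 16.6 ± 6.60, also lowest in replicate 1. The 2 chains of type I collagen, which is the main collagen of the dermis, did not keep an order on the TPM scale. Their differences were -0.40, -0.10 and 0.46, a mean of -0.015 ± 0.43 (two-sided exact sign-flip p = 1, adjusted 1), and the mean turned to 0.18 without replicate 1 and to 0.03 without replicate 2. With no division by length the order was steady, with Col1a1 below Col1a2 in counts in 3 of 3 libraries. The mean log2(CPM + 1) difference was -0.92 (exact sign-flip p = 0.25). The gene lengths are 6563 bases for Col1a1 and 12426 for Col1a2, while their longest coding sequences hold 1453 and 1372 codons.

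Col3a1, which fibroblasts make together with type I, had 3, 1 and 7 counts and 0.0273 ± 0.0194 TPM. The other undetected fibrillar genes were Col11a2 at 0.408 ± 0.356 TPM, Col27a1 at 0.136 ± 0.0505, Col24a1 at 0.102 ± 0.0538, the cartilage gene Col2a1 at 0.0497 ± 0.0346 and Col11a1 at 0, 0 and 7 counts. Type I transcripts were present while Col3a1, Lum, Dpt and Dcn were at or near 0. Of the fibroblast markers, Thy1, like Col1a1, was lowest in replicate 1 (5.48 TPM, against 9.22 and 11.1), and Fbln1 was also lowest in replicate 1 (129 TPM, against 212 and 176). Their part in the type I level was not tested.

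**Figure D4:**
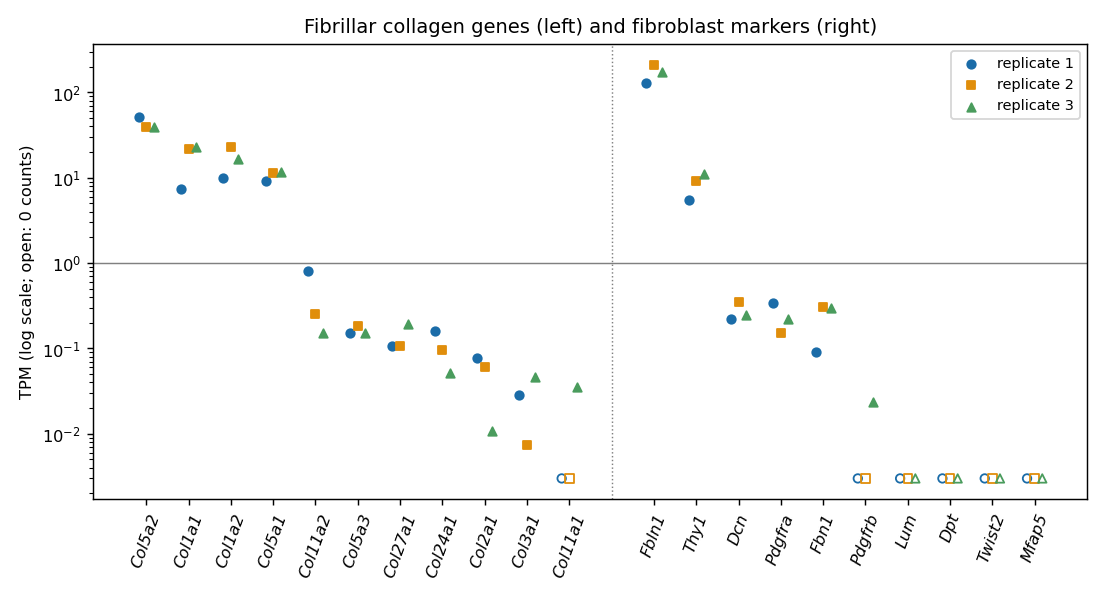
TPM on a log scale (vertical axis) of the 11 fibrillar collagen genes (left) and 10 fibroblast markers (right), with 1 point per library, open points at the bottom for 0 counts and a grey line at 1 TPM. Col5a2, Col1a1, Col1a2 and Col5a1 lie above the line beside Fbln1 and Thy1, while Col3a1, Dcn, Lum and Dpt lie below it.

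Within a library the basement membrane genes summed to 139, 143 and 169 TPM and the fibrillar genes to 79.2, 96.7 and 91.4 TPM. The log2 ratio of the sums was 0.81, 0.57 and 0.88, a mean of 0.75 ± 0.17, positive in 3 of 3 libraries. By counts, with no length, it was 0.41, and as a difference of class medians of log2(TPM + 1) it was 4.12, with 7 of 11 fibrillar genes under 1 TPM.

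Fibril-associated collagens sit on the surface of fibrils and do not form fibres themselves. Col12a1 had 32.7, 45.1 and 50.5 TPM, a mean of 42.8 ± 9.17. Col16a1 had the smallest relative spread of the 15 members above 10 TPM, with 32.4, 34.9 and 34.4 TPM, a mean of 33.9 ± 1.34. Col14a1 had 3.10, 4.16 and 7.42 TPM and was highest in replicate 3. Col20a1 had 10.9, 2.35 and 1.69 TPM, so replicate 1 decided its mean of 4.98 ± 5.14, which was 2.02 without that library. Col9a2 had 1.86, 2.19 and 1.34 TPM and Col9a3 had 1.47, 1.25 and 0.976 TPM. Their partner Col9a1 had 0 counts (upper limit 0.0549 TPM), as did Col22a1 (upper limit 0.0302 TPM). Col19a1 was at 0.103 ± 0.0655 TPM.

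The transmembrane collagens without Col17a1 were low. Col23a1 had 1.42, 1.36 and 1.77 TPM, a mean of 1.52 ± 0.223. Col25a1 had 2, 0 and 0 counts and Col13a1 had 0 counts (upper limit 0.0604 TPM). Col26a1 and Col28a1, which belong to no class above, were at 0.0808 ± 0.0696 TPM and at 1, 0 and 0 counts.

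In the order of the 23 detected members, 19 of 22 neighbouring pairs had overlapping values over the libraries. The 3 gaps without overlap lay between Col7a1 and Col6a2, between Col16a1 and Col4a5, and between Col8a1 and Col9a2. Col6a1 stayed above Col18a1 in 3 of 3 libraries, while Col18a1 and Col8a2, with means of 319.6 and 319 TPM, changed places between libraries. Of the detected members, 12 (52.2%) were lowest in replicate 1, against 25.2% of detected protein-coding genes, and 9 (39.1%) were highest there, against 60% of those genes. Replicate 3 was highest for 11 members (47.8%, against 19.3%) and lowest for 8 (34.8%, against 41.2%), and replicate 2 was highest for 3 and lowest for 3 (13.04% each, against 20.7% and 33.7%). The median log2 difference of replicate 1 from the mean of the others was -0.10 over the detected members and 0.22 over all detected protein-coding genes.

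The authors' deposited table also holds a fold change per gene whose groups are not named there; from the names of columns not used here, its other side was read as the bulge, the follicle region where the stem cells lie. In the authors' deposited table, 35 of the 43 members had an adjusted p-value, 12 of them (34.3%) were higher in the libraries studied here at an adjusted p under 0.05 and 4 (11.4%) were lower. Over all 20264 genes with an adjusted p in the authors' deposited table, 23.6% were higher and 31.9% lower. The median log2 fold change in the authors' deposited table was 0.61 over these 35 members and -0.36 over all 20264 genes. All 12 higher members had a mean TPM of at least 1, a limit set on 1 side of the comparison. Of the 23 members past that limit, 12 were higher and 2 lower in the authors' deposited table. Of the 13505 genes past the same limit, 35.1% were higher and 25.6% lower. The median log2 fold change was 0.79 over these 23 members and 0.25 over these 13505 genes.

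Markers of other cells also differed in the authors' deposited table. Of the 5 interfollicular and suprabasal markers 4 were higher there, namely Lor (log2 fold change 5.78, adjusted p 2.15e-07), Krt10 (3.29, adjusted p 1.65e-06), Flg2 (2.81, adjusted p 0.00583) and Krt1 (2.49, adjusted p 1.37e-10). Ly6a, which encodes Sca1, was lower (-1.44, adjusted p 0.0148), though still detected here with 3.16, 11.6 and 8.99 TPM in replicates 1, 2 and 3. Of the 5 fibroblast markers with an adjusted p in the authors' deposited table, Fbln1 (1.14, adjusted p 0.000228) and Thy1 (1.13, adjusted p 0.0282) were higher and none was lower. Their part in the collagen differences was not tested.

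The 3 largest increases in the authors' deposited table were those of Col9a2 (log2 fold change 3.63, adjusted p 0.000671), Col16a1 (2.93, adjusted p 8.97e-30) and Col8a2 (2.80, adjusted p 1.10e-15). Next in the authors' deposited table came Col18a1 (2.27, adjusted p 1.87e-10), Col7a1 (2.03, adjusted p 1.20e-16), Col6a1 (1.74, adjusted p 2.44e-08) and Col4a1 (1.66, adjusted p 1.71e-07). Col14a1, Col5a1, Col6a2, Col4a2 and Col4a6 followed with log2 fold changes from 1.23 down to 0.48 in the authors' deposited table. The 4 most abundant members were all among the higher ones. They were ranked by TPM on 1 side of the comparison, which by itself favours higher calls.

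The lower members in the authors' deposited table were Col10a1 (log2 fold change -6.83, adjusted p 4.18e-14), Col3a1 (-2.67, adjusted p 0.0172), Col12a1 (-1.13, adjusted p 9.30e-05) and Col23a1 (-1.05, adjusted p 0.0198). Col10a1 and Col3a1 rest on 2 and 11 counts in all 3 libraries here. Of the 15 members above 10 TPM, a limit also set on 1 side of the comparison, Col12a1 alone was lower. At an adjusted p under 0.01 in the authors' deposited table Col10a1 and Col12a1 were lower, against 26.2% of all genes. Type I collagen did not pass the threshold in the authors' deposited table, with log2 fold changes of 0.73 for Col1a1 (adjusted p 0.132) and 0.61 for Col1a2 (adjusted p 0.126). Nor did Col5a2 in the authors' deposited table (0.48, adjusted p 0.0502). Of the type IV genes, Col4a5, Col4a3 and Col4a4 had log2 fold changes of -0.07, -0.16 and 0.03 in the authors' deposited table, with adjusted p-values from 0.654 to 0.935.

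**Figure D5:**
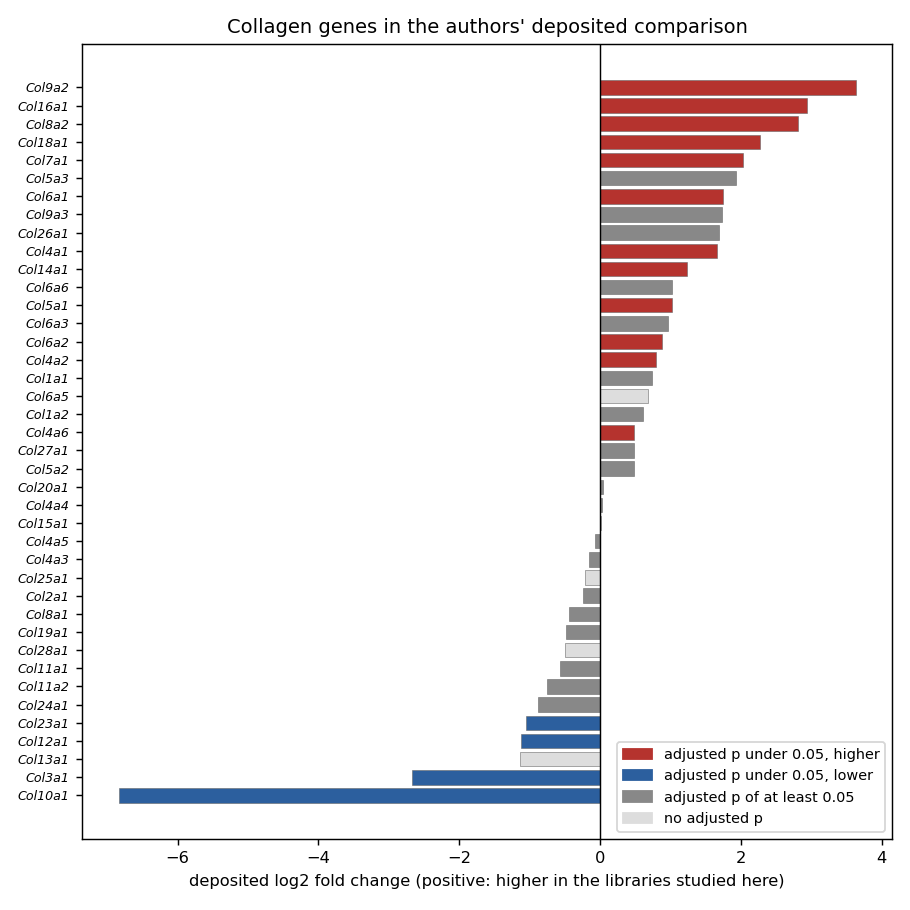
Log2 fold change from the authors' deposited table (horizontal axis, positive meaning higher in the libraries studied here) for the 40 collagen genes that have one, 1 bar per gene, coloured by the deposited adjusted p. The 12 higher genes are led by Col9a2, Col16a1 and Col8a2, and Col10a1 is lowest at -6.83.

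H3K27me3 is a histone mark placed by Polycomb complexes and found at silent developmental genes. In the authors' deposited table, 12 of the 43 members (27.9%) had an H3K27me3 value above 0, against 11.2% of 21410 protein-coding genes. Of the 23 detected members 2 had a value in the authors' deposited table (8.70%, against 3.52% of detected protein-coding genes), namely Col14a1 with 3272 and Col9a2 with 3798. Of the 20 undetected members 10 had one in the authors' deposited table, or 50.0%, against 20.6% of undetected protein-coding genes. The highest values in the authors' deposited table were those of Col27a1 (29741), Col26a1 (19548), Col2a1 (19123) and Col13a1 (13085). Mean TPM ran from 0 to 4.89 over the 12 members with a value and from 0 to 392 over the others, with medians of 0.102 and 9.05 TPM. A low level and a value above 0 did not go together throughout. Col3a1, Col6a3, Col10a1 and Col22a1 were undetected although the authors' deposited table lists their H3K27me3 as 0. The values are known only by their column name, which states neither the cells nor the assay. A listed 0 thus need not mean that the mark is absent in the cells studied here.

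Collagen chains are modified and folded in the endoplasmic reticulum before secretion, and most of the genes listed for these steps were detected. Of 20 such genes 17 had a mean TPM of at least 1, with P4ha3 at 0 counts. Serpinh1, the collagen-specific chaperone HSP47, had 394, 575 and 475 TPM, a mean of 481 ± 90.7. P4hb, the shared subunit of prolyl 4-hydroxylase, had 456 ± 68.9 TPM, P3h4 had 149.6 ± 16.7 TPM and P3h2, a prolyl 3-hydroxylase, had 96.0 ± 26.3 TPM. In the authors' deposited table, 11 of 19 with an adjusted p were higher and 3 lower, against 23.6% and 31.9% of all genes. Serpinh1 (log2 fold change 2.99, adjusted p 8.14e-29), P3h4 (2.25, adjusted p 2.69e-14) and P4hb (1.22, adjusted p 2.25e-06) were higher and P3h2 (-1.45, adjusted p 3.60e-06) was lower in the authors' deposited table.

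Genes that trim procollagen and cross-link fibres were lower in level, with 10 of 15 at 1 TPM or more and a summed 75.2 ± 6.61 TPM. Bmp1, the procollagen C-proteinase, led with 27.96 ± 8.09 TPM, followed by its enhancer Pcolce2 with 21.9 ± 5.39, the peroxidasin gene Pxdn, which cross-links type IV collagen, with 6.61 ± 0.699, and the lysyl oxidase gene Loxl4 with 4.57 ± 1.04 TPM. Tll2 had 0 counts. In the authors' deposited table, 3 of 14 were higher and 3 lower, against 23.6% and 31.9% of all genes.

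Among 11 collagen receptors 6 were detected. Ddr1, a receptor tyrosine kinase activated by collagen, had 291, 589 and 599 TPM and was lowest in replicate 1. Itgb1 had 236 ± 8.73 TPM, Cd44 91.9 ± 7.82 TPM and Itga2, which pairs with Itgb1 as a collagen receptor, 34.8 ± 7.59 TPM. In the authors' deposited table, 2 of 9 were higher and 3 lower, near the 23.6% and 31.9% of all genes, with Ddr1 at a log2 fold change of 3.09 (adjusted p 2.36e-17) and Itga2 at -1.58 (adjusted p 2.25e-08).

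Of 14 collagen-cleaving proteases and inhibitors 5 were detected. Timp2, an inhibitor of metalloproteinases, led with 579 ± 122 TPM, followed by the membrane protease Mmp14 with 113 ± 26.0 TPM, the gelatinase Mmp2 with 41.4 ± 11.2 TPM and Mmp15 with 17.3 ± 7.08 TPM. The fibrillar collagenases Mmp13 and Mmp1a and the inhibitor Timp4 had 0 counts in all 3 libraries. In the authors' deposited table, 3 of 9 were higher and 3 lower, where 23.6% and 31.9% of all genes were.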

How the data were processed

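A single deposited table of 44625 entries was used. For each library it holds a whole-number read count per gene and a TPM value, both deposited by the authors, per the file headers. TPM recomputed here from count and gene length differed from the authors' TPM by at most 4.72e-06. The submitters' processing notes name FastQC, SAMtools, TopHat2, DESeq, DESeq2, mm10 and GRCm38 with no role. The counting tool and strand setting are not given in the sources used here. The authors also deposited a log2 fold change, its adjusted p-value, an H3K27me3 number of unstated unit and a score per gene. The deposited score equals (H3K27me3 number + 1) times the log2 fold change times -log10 of the adjusted p-value (0 of 20274 scores off by more than 0.1%).

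Columns named for the bulge (6 in number) match no sample and stayed out of every step. The fold change was read from these names as a comparison with the bulge. Of 2555 genes with 0 counts in all 3 libraries and a fold change, 2555 had a negative one, so positive means higher in the libraries studied here.

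Symbols that a spreadsheet had turned into numbers (27) were resolved by identifier, and 1 entry per symbol was kept, which left 44548 genes. Members, classes and lists were chosen with earlier results of these data known. Named are all detected members (mean TPM 1 or more), the others by class, the 4 highest genes of each pathway list, list genes at 0 counts, the highest marker of a list, and members called in the deposited comparison. Dcn, Thy1, the suprabasal markers and Ly6a were added after their values were seen. Differences of log2(TPM + 1) between partner chains were tested over libraries by exact sign-flip permutation (two-sided), adjusted by Benjamini-Hochberg over 6 pairs, with code tested on simulated data. Alternatives covered the detection limit, pseudocount, length scaling, TMM factors (edgeR 4.0.16), thresholds and each library left out. Intervals (95% Wilson) and the 3-count limit behind a 0 cover counting error only. Coordinates are from GENCODE M21 (GRCm38), by identifier.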

Additional observations from a re-analysis of the deposited data

How the results depend on the processing

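The 15 results were recomputed in 75 alternatives. Of these, 65 moved by less than 1 SD over libraries, kept their sign (for pair differences) or stayed within 1.5 times (for counts). Those 65 include large shifts when length was left out: Col1a1 minus Col1a2 became -0.92, Col6a1 minus Col6a2 1.40 and the anchoring share 16.7%. The fibrillar share of collagen was 7.86% by counts. The log2 ratio of basement membrane to fibrillar sums was 0.41 by counts and 4.12 by class medians. The Col4a5 minus Col4a6 difference turned to -0.18 without division by length, and over the libraries left out in turn it ran from -0.013 to 0.11. Col1a1 minus Col1a2 ran from -0.25 to 0.18 in the same way, with 0.03 without replicate 2. Lower members numbered 2 at an adjusted p under 0.01 and 2 among the detected members, and 7 members had an H3K27me3 value of at least the median of all genes with one. Partner chains were compared within each library, but no pairing between groups was possible because the samples form 1 group. The exact test over 3 libraries cannot give a p under 0.25, so the pair results rest on their size and SD. Depth limits the 4 members at 0 counts to under 0.0604 TPM.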
